A study of Homo sapiens with 16 samples.

Results

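Transcript levels were examined for 7 genes that make up the core of protein N-myristoylation: the N-myristoyltransferase genes NMT1 and NMT2, the methionine aminopeptidase genes METAP1 and METAP2, the acyl-CoA binding gene ACBD6 and the lipid-binding chaperone genes UNC119 and UNC119B. They were taken by symbol from a table of 58051 gene identifiers, and each symbol matched 1 identifier. The cells were P493-6, an immortalised human B cell line that carries a MYC transgene repressed by doxycycline and a fusion of the Epstein-Barr virus protein EBNA2 to the oestrogen receptor, which is active when estradiol is present. All 16 cultures were of this single line. High MYC cells were kept in plain DMEM and medium MYC cells in DMEM with 0.1 µg/mL doxycycline and 1 µM beta-estradiol, in each case for 24 h. IMP1088, an inhibitor of both N-myristoyltransferases, was then given at 100 nM for 24 h, and control cells received DMSO. The 2 MYC levels and 2 treatments give 4 groups, and each group has 4 libraries. Because doxycycline and estradiol were added together at medium MYC and to no high MYC culture, the MYC level, the drug and the hormone cannot be told apart in any comparison of MYC levels. The labels do not say whether the 4 libraries of a group came from separate cultures, so p-values measure the spread between these libraries, which may be technical.

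N-myristoylation is the attachment of the fatty acid myristate to an N-terminal glycine. The initiator methionine is first removed by a methionine aminopeptidase, most often while the protein is still on the ribosome. N-myristoyltransferase then transfers the acyl chain from myristoyl-CoA, and ACBD6 binds long-chain acyl-CoA and assists the transferases. UNC119 and UNC119B hold the myristoylated N-terminus of client proteins in a hydrophobic pocket, which keeps them soluble, and the small GTPases ARL2 and ARL3 release the clients at membranes. In B cells the Src family kinases of the antigen receptor pathway are among the proteins that carry this lipid.

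The genes lie at separate loci of GRCh38 in GENCODE release 29. NMT1 (ENSG00000136448) occupies chromosome 17 from 45051610 to 45109016 on the plus strand, and NMT2 (ENSG00000152465) occupies chromosome 10 from 15102584 to 15168693 on the minus strand. METAP1 (ENSG00000164024) lies on chromosome 4 from 98995620 to 99062813, and METAP2 (ENSG00000111142) on chromosome 12 from 95473520 to 95515839, both on the plus strand. ACBD6 (ENSG00000230124) lies on chromosome 1 from 180269653 to 180502954 on the minus strand. UNC119 (ENSG00000109103) spans 28546707 to 28552668 of chromosome 17 on the minus strand, and UNC119B (ENSG00000175970) spans 120710435 to 120723640 of chromosome 12 on the plus strand.

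Promoter sequences from RefSeq (GRCh38.p14), matched by symbol, were used for 4 of the 7 genes, NMT1, NMT2, ACBD6 and UNC119. Those of NMT1, NMT2 and UNC119 are shown here because these genes were higher at medium MYC, by 1.15-fold to several fold. Each line gives, 5′ to 3′ on the gene's own strand, the part of the 250 bases before the RefSeq start site that no annotated exon covers, in lower case with the RBPJ core motif TGGGAA in capitals. The NMT1 stretch is chr17:45061110-45061282, the NMT2 stretch is chr10:15168694-15168943 and the UNC119 stretch is chr17:28552669-28552878. The RefSeq start site of NMT1 lies inside the gene span of GENCODE.
NMT1: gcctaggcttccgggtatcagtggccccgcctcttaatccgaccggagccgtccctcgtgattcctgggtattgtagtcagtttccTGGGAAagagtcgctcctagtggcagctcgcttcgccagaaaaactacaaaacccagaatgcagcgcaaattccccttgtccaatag
NMT2: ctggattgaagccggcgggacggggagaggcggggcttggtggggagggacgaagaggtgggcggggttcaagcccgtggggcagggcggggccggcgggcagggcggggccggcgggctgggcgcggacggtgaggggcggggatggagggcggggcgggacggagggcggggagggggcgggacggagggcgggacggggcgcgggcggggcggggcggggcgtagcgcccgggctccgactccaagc
UNC119: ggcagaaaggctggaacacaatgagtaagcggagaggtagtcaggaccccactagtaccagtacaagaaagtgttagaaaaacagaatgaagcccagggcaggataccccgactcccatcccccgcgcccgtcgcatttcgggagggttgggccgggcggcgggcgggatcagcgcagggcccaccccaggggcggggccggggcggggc
The GC content of these stretches was 54.9% for NMT1, 82% for NMT2 and 65.2% for UNC119. Both motifs were searched on both strands of the whole 250-base windows of NMT1, NMT2, ACBD6 and UNC119: the E-box CACGTG, which MYC binds together with MAX, and the letters TGGGAA (its reverse complement TTCCCA), the core bound by RBPJ, through which EBNA2 reaches DNA. Neither motif contains the other. UNC119 has 2 such windows, and the ACBD6 window is wholly covered by annotated exons of ACBD6. The E-box was in none of the 4 genes' windows, against 7.73% of 27305 genes with a RefSeq promoter window of the same length. The RBPJ core was in the NMT1 window alone among the 4 genes, with its first base 121 bases before the start site (position -121). Of all genes with such a window 24.6% had this core. A match in letters is a description, and binding was not measured here.

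Depth ran from 8755296 to 13858534 reads per library, and the share held by the 10 most counted genes lay between 9.58% and 14.3% of them. Values are normalized counts, that is, reads divided by 1 size factor per library. A minimum mean of 10 across the libraries left 13765 genes, which were tested together with limma, and all 7 members passed this minimum. A gene was called at a Benjamini-Hochberg adjusted p under 0.05, two-sided. MYC, the check of the groups, had a mean of 31649 in high MYC controls and 959 in medium MYC controls, and 47542 and 1382 with the inhibitor. All 7 B cell markers examined (MS4A1, CD79A, CD79B, CD22, PAX5, CD74 and PTPRC) had a mean above 10 in every group. Their summed normalized count per library was 41888 to 44078 in high MYC controls and 64828 to 68424 in medium MYC controls. Not all of them followed the sum: CD79A (means of 3096 and 2854) and CD79B (1574 and 1464) had lower means in medium MYC controls. With the inhibitor the sum was lower, at 35000 to 36140 at high MYC and 58342 to 60093 at medium MYC. The 5 T cell markers summed to 62.9 to 71.5 in high MYC controls and 68.8 to 95.4 in medium MYC controls. The 5 myeloid markers summed to 64.0 to 86.1 and 140 to 173, with CD68 at means of 22.9 and 100. CD68 shares 81.7% of its exon bases with AC016876.2 on the same strand, so its count is uncertain. The 5 epithelial and stromal markers summed to 133 to 155 in high MYC controls and 266 to 296 in medium MYC controls. COL1A1 was higher at medium MYC, with means of 7.09 and 164, EPCAM was lower, with 62.1 and 13.1, and KRT18 was at 0 in every library. The part of such transcripts in the results for the members was not tested.

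NMT2 reached the minimum only through its medium MYC libraries, so it is left out of the counts for MYC level. The other 6 members all differed between medium and high MYC controls, with 3 higher and 3 lower at medium MYC and no overlap between the groups for any of them. Of all tested genes 76.2% were called in this comparison, 38.9% higher and 37.3% lower, and 69.2% had no overlap, so a call by itself sets no member apart. The median log2 difference of these 6 was -0.22, against 0.02 over all tested genes, and the range from METAP1 to UNC119 was wide. With the inhibitor present the same 3 members were higher and the same 3 lower at medium MYC, again without overlap. In that comparison 77.5% of all tested genes were called, 39.7% higher and 37.8% lower, and 72.6% had no overlap. By contrast, IMP1088 was followed by a call for only UNC119 and UNC119B at each MYC level. Both were lower, and the other 5 members did not pass the test at either level. Of all tested genes 26.8% were called at high MYC, with 16.3% called lower, and 26.3% at medium MYC, with 14.6% called lower, so 2 of 7 is close to the background share. The balance of all called genes depended on the scaling. With the deposited scaling 1442 rose and 2247 fell at high MYC, and 1727 and 1770 with quantile normalization. At medium MYC 1606 rose and 2012 fell, whereas more rose than fell with equal library totals (1962 and 1658) and with quantile normalization (1963 and 1876).

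**Figure D1:**
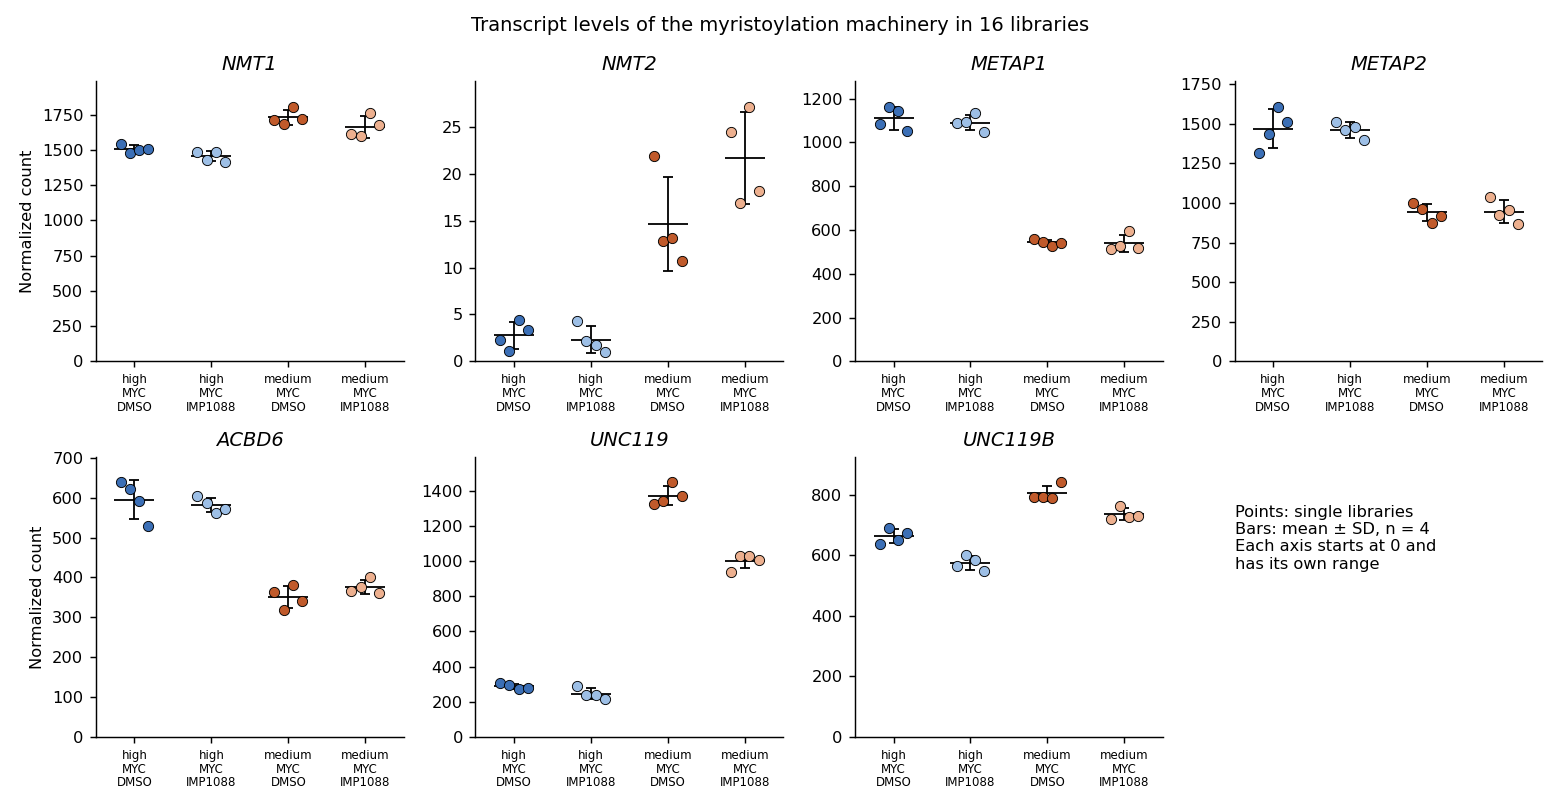
Normalized counts (y axis, linear from 0, own range per panel) of the 7 genes in the 16 libraries, grouped by MYC level and treatment (x axis); points are libraries and bars the mean ± SD of 4. METAP1, METAP2 and ACBD6 sit lower at medium MYC, NMT2 and UNC119 sit several fold higher, and the UNC119 libraries with the inhibitor at medium MYC (939 to 1028) lie below all of their controls (1324 to 1447).

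NMT1, the principal human N-myristoyltransferase and a target of IMP1088, was expressed at a similar level in all groups and was slightly higher at medium MYC. Its normalized counts in high MYC controls were 1544, 1479, 1495 and 1503, and with the inhibitor they were 1487, 1430, 1484 and 1417. In medium MYC controls they were 1713, 1681, 1807 and 1717, and with the inhibitor 1612, 1595, 1762 and 1679. Every medium MYC control library was above every high MYC control library, while libraries with and without the inhibitor overlapped at both MYC levels. Among controls the mean rose from 1505 ± 27.6 at high MYC to 1729 ± 54.4 at medium MYC (SD, n = 4 each). This was a 1.15-fold difference (log2 0.20, SE 0.03, limma adjusted p 2.46e-05), smaller than that of 77.6% of tested genes. With the inhibitor the difference was 0.19 (limma adjusted p 3.84e-05). IMP1088 itself was followed by a log2 difference in NMT1 of -0.05 at high MYC (95% interval -0.12 to 0.02, limma adjusted p 0.321) and -0.06 at medium MYC (95% interval -0.13 to 0.01, limma adjusted p 0.247). Its exons share 52 bases with DCAKD and 50 with PLCD3 on the opposite strand, under 1% of the exon bases in each case.

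NMT2, the second N-myristoyltransferase gene, was barely detected. Its normalized counts in high MYC controls were 2.26, 1.12, 4.41 and 3.35, and with the inhibitor 4.30, 2.22, 1.75 and 1.04. In medium MYC controls they were 21.9, 12.8, 13.1 and 10.7, and with the inhibitor 24.5, 16.9, 27.2 and 18.1. No high MYC library reached the lowest medium MYC library, and the treated and control libraries overlapped at each MYC level. Its mean over all libraries was 10.4, just above the minimum of 10, and 99.5% of tested genes had a higher mean. Since it passed that minimum only through the medium MYC libraries, its fitted MYC difference had to be large. The fitted log2 difference among controls was 2.08 (SE 0.36), given as a description, and without any filter the limma adjusted p was 1.12e-04. From the summed reads, 11 in high MYC controls and 64 in medium MYC controls, the scaled ratio was 5.21 (exact binomial 95% interval 2.73 to 11.0). With the inhibitor, 9 and 82 reads gave a ratio of 9.41 (exact binomial 95% interval 4.72 to 21.3). These intervals cover counting error only, since without molecular identifiers 1 molecule can give several reads.

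A response of NMT2 to IMP1088 was not detectable at this depth. Its log2 difference at medium MYC was 0.56 (95% interval -0.19 to 1.30, limma adjusted p 0.278), and the summed reads, 64 and 82, gave a scaled ratio of 1.51 (exact binomial 95% interval 1.07 to 2.12), which leaves out the spread between libraries. At high MYC the log2 difference was -0.19 (95% interval -0.94 to 0.55, limma adjusted p 0.743). NMT2 exons share 379 bases, 8.06% of their length, with RPP38, a gene for a subunit of the RNA-processing complexes RNase P and RNase MRP, on the opposite strand, and whether counting used strand is not given in the sources used here. Among controls RPP38 had a mean of 188 ± 11.2 at high MYC and of 135 ± 2.82 at medium MYC (SD, n = 4 each), a log2 difference of -0.47 (limma adjusted p 7.98e-06). The part of RPP38 reads in the NMT2 counts was not tested.

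METAP1 and METAP2, which encode the cytosolic enzymes that remove the initiator methionine, were both lower at medium MYC. METAP1 had normalized counts of 1082, 1163, 1143 and 1052 in high MYC controls and 558, 544, 528 and 542 in medium MYC controls, with no overlap. Its mean changed from 1110 ± 52.1 to 543 ± 12.4 (SD, n = 4 each), so that high MYC cells held 2.04 times the level of medium MYC cells (log2 -1.03, SE 0.05, limma adjusted p 1.39e-14). METAP1 had a larger absolute difference than all but 23.2% of tested genes. METAP2, the target of fumagillin-type inhibitors, had normalized counts of 1316, 1436, 1608 and 1510 in high MYC controls and 1000, 961, 876 and 920 in medium MYC controls, again with no overlap. Its level at high MYC was 1.56 times that at medium MYC (log2 -0.64, SE 0.06, limma adjusted p 1.36e-09).

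Neither aminopeptidase gene passed the test for IMP1088. With the inhibitor METAP1 had normalized counts of 1087, 1091, 1134 and 1047 at high MYC and 511, 526, 596 and 518 at medium MYC. METAP2 had 1511, 1460, 1477 and 1394 at high MYC and 1036, 923, 956 and 867 at medium MYC. All of these ranges overlapped those of their controls. The log2 difference of METAP1 was -0.03 at high MYC (95% interval -0.12 to 0.07, limma adjusted p 0.741) and -0.02 at medium MYC (95% interval -0.11 to 0.08, limma adjusted p 0.855). That of METAP2 was close to 0 at high MYC (95% interval -0.12 to 0.12, limma adjusted p 0.974) and 0.01 at medium MYC (95% interval -0.11 to 0.13, limma adjusted p 0.943). Exons of METAP1 share 474 bases with the pseudogene ABT1P1, which was listed at 0 in every library.

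ACBD6 behaved like the aminopeptidase genes with respect to MYC level. Its normalized counts were 639, 622, 590 and 530 in high MYC controls and 363, 318, 381 and 342 in medium MYC controls. The groups did not overlap, and the high MYC level was 1.69 times the medium MYC level (log2 -0.76, SE 0.06, limma adjusted p 2.39e-10). With the inhibitor its counts were 603, 586, 562 and 573 at high MYC and 367, 375, 401 and 361 at medium MYC, which overlapped the controls in each case. The log2 difference with IMP1088 was -0.03 at high MYC (95% interval -0.16 to 0.10, limma adjusted p 0.752) and 0.10 at medium MYC (95% interval -0.03 to 0.23, limma adjusted p 0.246). Exons of ACBD6 share 1866 bases, 24.8% of their length, with LHX4 on the opposite strand, whose mean over all libraries was 1.03.

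UNC119 showed the largest MYC difference of the well-expressed members and fell more than UNC119B with the inhibitor at medium MYC, while at high MYC the log2 changes of the pair were -0.23 and -0.21. Its normalized counts were 306, 295, 272 and 279 in high MYC controls and 1324, 1342, 1447 and 1370 in medium MYC controls. With the inhibitor they were 291, 237, 241 and 216 at high MYC and 939, 1026, 1028 and 1004 at medium MYC. All medium MYC libraries lay above all high MYC libraries, and at medium MYC every treated library lay below every control library. At high MYC 1 treated library, with 291, lay within the control range and the other 3 lay below it. Among controls UNC119 was 4.75-fold higher at medium MYC (log2 2.25, SE 0.07, limma adjusted p 6.14e-18), and 5.75% of tested genes had a larger absolute difference. With the inhibitor it was 4.06-fold higher (log2 2.02, SE 0.07, limma adjusted p 3.51e-17).

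With IMP1088 at medium MYC UNC119 fell by 27.1% in the fit on the log scale, its mean going from 1371 ± 54.6 to 999 ± 41.6 (SD, n = 4 each). The log2 change was -0.46 (SE 0.07, 95% interval -0.59 to -0.32, limma adjusted p 2.12e-05), and 9.87% of tested genes had a larger absolute change. At high MYC UNC119 fell by 14.8% in that fit, its mean going from 288 ± 15.5 to 246 ± 31.9 (SD, n = 4 each; log2 -0.23, SE 0.07, limma adjusted p 0.0131). The call at high MYC was lost without high MYC inhibitor replicate 4 (log2 -0.17, limma adjusted p 0.0600), in a fit of the compared groups only (limma adjusted p 0.0838), and after a correction for the mean GC content of all transcripts of a gene (log2 -0.14, limma adjusted p 0.106). The call at medium MYC held in all 16 alternative settings, with log2 changes between -0.46 and -0.36 and a highest adjusted p of 4.52e-04 over them. No exon of UNC119 overlapped that of another gene in the annotation.

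UNC119B, the paralog with the same lipid-binding fold, differed far less between the MYC levels. Its normalized counts were 637, 691, 651 and 675 in high MYC controls and 794, 793, 789 and 841 in medium MYC controls. The groups did not overlap and the difference was 1.21-fold (log2 0.28, SE 0.04, limma adjusted p 2.77e-06). With the inhibitor its counts were 565, 600, 586 and 549 at high MYC and 721, 764, 728 and 730 at medium MYC. At both MYC levels every treated library lay below every control library. UNC119B was the only member without overlap at high MYC, where 26.7% of all tested genes had none, and 1 of 2, with UNC119, at medium MYC, where the share was 27.9%.

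In the fit on the log scale UNC119B fell by 13.4% with IMP1088 at high MYC (means 664 ± 23.9 to 575 ± 22.6, SD, n = 4 each; log2 -0.21, SE 0.04, limma adjusted p 6.17e-04) and fell by 8.47% at medium MYC (means 804 ± 24.8 to 736 ± 19.1, SD, n = 4 each; log2 -0.13, SE 0.04, limma adjusted p 0.0242). Both calls were lost after the correction for the mean GC content of all transcripts (log2 -0.12, limma adjusted p 0.0790 at high MYC, and -0.04, limma adjusted p 0.617 at medium MYC), and both held when the GC content of the longest transcript was used. Tested genes within 2 percentage points of the mean GC content of UNC119B transcripts (59.9%) had a median log2 change of -0.09 at high MYC and -0.09 at medium MYC. The call at medium MYC was also lost without medium MYC control replicate 4 (limma adjusted p 0.0890) and without medium MYC inhibitor replicate 1, 3 or 4 (limma adjusted p 0.0627, 0.0553 and 0.0539). It was lost as well with equal library totals (limma adjusted p 0.0870), with quantile normalization (limma adjusted p 0.0806) and with DESeq2 (adjusted p 0.0602). Exons of UNC119B share 569 bases with an antisense RNA, AC069234.3, whose mean was 0.124, and 74 bases with MIR4700.

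**Figure D2:**
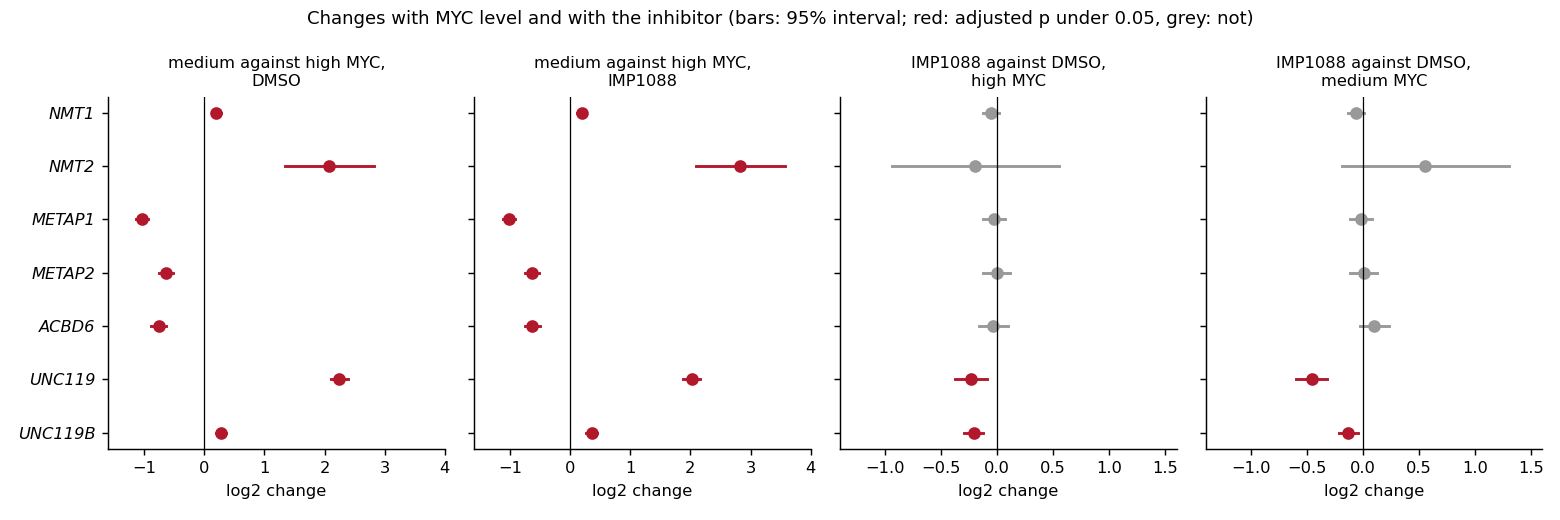
Fitted log2 change (x axis, 0 marked by a line) of each of the 7 genes (y axis) for the 2 comparisons of MYC level and the 2 comparisons of IMP1088 with DMSO; bars are 95% intervals and red marks an adjusted p under 0.05. All 7, including NMT2, which passed the minimum mean only through medium MYC libraries, are red for MYC level, from METAP1 at -1.03 to UNC119 at 2.25 among controls. Only UNC119 and UNC119B are red for the inhibitor. Of all tested genes 76.2% (controls) and 77.5% (with the inhibitor) were called for MYC level. For the inhibitor the shares were 26.8% at high MYC and 26.3% at medium MYC.

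The study's title asks how NMT inhibition plays out at different MYC levels, so the response at high MYC was compared with that at medium MYC for each member. None of the 7 passed this test with limma, against 8.63% of all tested genes. UNC119 came nearest, with an unadjusted p of 0.0273: its response was less negative at high MYC by 0.22 on the log2 scale (95% interval 0.03 to 0.42, limma adjusted p 0.162), and it was the 1 member with an unadjusted p under 0.05. For UNC119B the response at high minus that at medium MYC was -0.08 (95% interval -0.20 to 0.04, limma adjusted p 0.476). For NMT1 it was 0.01 (95% interval -0.09 to 0.11, limma adjusted p 0.959). The interval for NMT2, from -1.81 to 0.30, was too wide to exclude a difference of several fold. With edgeR and with DESeq2 the count was also 0, with the adjusted p of NMT2 left undefined by DESeq2.

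In a ratio between paralogs within a library the library scaling cancels, apart from the pseudocount of 1 added to each value, which weighs on NMT2. The ratios are of normalized counts and take no account of gene length. Differences were tested by two-sided exact permutation of 4 against 4 libraries, 12 tests in all. The smallest exact permutation p this design allows is 0.0286, which becomes 0.0490 after Benjamini-Hochberg adjustment over the 12. The 12 include the NMT2 to NMT1 tests between MYC levels, which sit at this smallest p although that ratio is only described. Without them the adjusted p of the other ratios would not stay under 0.05. UNC119B stood at 2.31 ± 0.154 times UNC119 in high MYC controls and at 0.587 ± 0.0300 times in medium MYC controls (SD, n = 4 each). The order of the pair was thus inverted between the MYC levels, in every library. The log2 ratio differed by -1.97 between control groups (exact permutation p = 0.0286, adjusted 0.0490). With IMP1088 the ratio was 0.737 ± 0.0254 (SD, n = 4) at medium MYC, a log2 difference of 0.33 from controls (exact permutation p = 0.0286, adjusted 0.0490). At high MYC it was 2.36 ± 0.285 (SD, n = 4), a log2 difference of 0.02 (exact permutation p = 0.743, adjusted 0.842). Whether these responses of the ratio differ between MYC levels was not tested.

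In counts METAP1 stood at 0.760 ± 0.0654 times METAP2 in high MYC controls and 0.579 ± 0.0207 times in medium MYC controls (SD, n = 4 each). Per kilobase of the longest transcript the libraries of the 2 genes overlapped in high MYC controls. The count ratio was lower at medium MYC by 0.39 on the log2 scale (exact permutation p = 0.0286, adjusted 0.0490). The inhibitor left this ratio within the spread of the libraries, with log2 differences of -0.02 at each MYC level (exact permutation p = 0.771 and 0.886). NMT2 counts were 0.00185 times those of NMT1 in high MYC controls and 0.00848 times in medium MYC controls, a log2 difference of 1.88 with a pseudocount of 1, given as a description for the reason stated for NMT2. Its size depended on the pseudocount, because of the low NMT2 counts, and was 0.73 with a pseudocount of 10. With the inhibitor at medium MYC the log2 ratio was higher than in controls by 0.62, but the libraries overlapped (exact permutation p = 0.0857, adjusted 0.129).

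**Figure D3:**
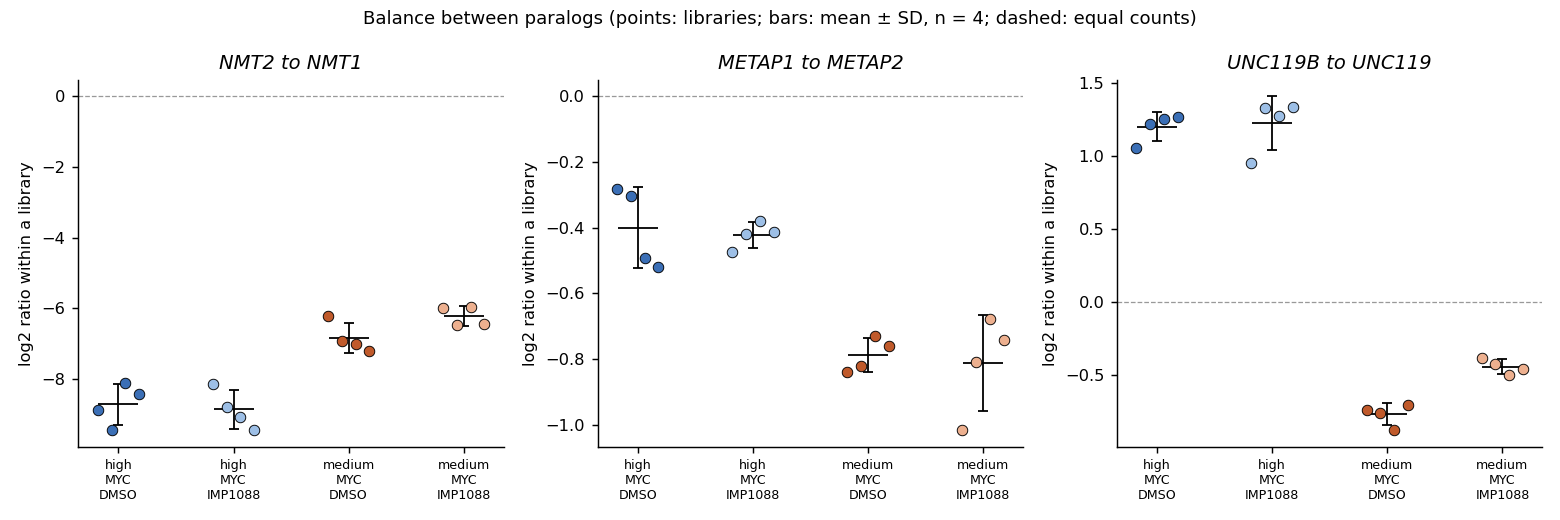
Log2 ratio of paired genes within each library (y axis, own range per panel; dashed line at equal counts) by MYC level and treatment (x axis); points are libraries and bars the mean ± SD of 4. The UNC119B to UNC119 ratio lies above the line in all 8 high MYC libraries and below it in all 8 medium MYC libraries, and at medium MYC the 4 treated libraries lie above the 4 controls.

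Levels of different genes were set side by side as normalized counts per kilobase of merged exon length. In high MYC controls the order was METAP2 (327 ± 27.4), METAP1 (270 ± 12.7), NMT1 (226 ± 4.14), UNC119B (128 ± 4.61), ACBD6 (79.2 ± 6.39), UNC119 (56.2 ± 3.01) and NMT2 (0.593 ± 0.301), each a mean ± SD of 4 libraries. No neighbours in that order overlapped. In medium MYC controls UNC119 (267 ± 10.7) and NMT1 (259 ± 8.15) came first and overlapped each other, followed by METAP2 (209 ± 11.9), UNC119B (155 ± 4.78), METAP1 (132 ± 3.01), ACBD6 (46.7 ± 3.62) and NMT2 (3.11 ± 1.06). UNC119 thus stood next to last at high MYC and shared the first place at medium MYC. With the inhibitor the order at high MYC was that of the controls. At medium MYC with the inhibitor NMT1 (249 ± 11.3) came first, METAP2 (210 ± 15.7, from 193 to 231) and UNC119 (195 ± 8.11, from 183 to 200.4) overlapped, and so did UNC119B (142 ± 3.68) and METAP1 (131 ± 9.55). Per kilobase of the longest transcript, METAP2 and METAP1 overlapped at high MYC. On that basis NMT1 preceded UNC119 in medium MYC controls and METAP1 preceded UNC119B, and the libraries of each of these pairs overlapped.

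The genes whose profile over the 16 libraries was most like each member's were found by the root mean square difference between centred log2 profiles, among 10843 genes with a mean of at least 50 (12352 with a mean of at least 20 for NMT2). For NMT1 they were GLE1 (0.0334) and CNOT1 (0.0410). For METAP1 they were NUDT5 (0.0582) and UQCRH (0.0641), and for METAP2 ASNSD1 (0.0529) and HAUS6 (0.0603). For ACBD6 they were SLC25A39 (0.0687) and CUTA (0.0702). UNC119 was followed most closely by GBE1 (0.131), which encodes the glycogen branching enzyme, and CDC14A (0.139). GBE1 had means of 436 and 372 without and with the inhibitor at high MYC, and 1980 and 1628 at medium MYC. UNC119B was followed most closely by ARPC3 (0.0499), an actin nucleation subunit, and MCM6 (0.0590), a replicative helicase subunit. For NMT2 they were ACTA2 (0.396) and CRYBG1 (0.397). The members' own root mean square deviations about their means ran from 0.109 for NMT1 to 1.32 for NMT2.

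Genes around the pathway were described in 7 lists. These lists were chosen with earlier results of these data known. Their counts beside the shares of all tested genes are therefore a description and no independent test. The first holds acyl-CoA binding proteins and enzymes that make or activate long-chain fatty acids, of which 12 of 14 were tested. With IMP1088 at medium MYC 7 of the 12 fell and 1 rose, with a median of -0.11 against -0.01 over all tested genes, of which 14.6% were called lower. FASN, fatty acid synthase, fell from 4419 ± 416 to 2695 ± 86.3 (SD, n = 4 each; log2 -0.71, limma adjusted p 8.58e-10). ACACA, acetyl-CoA carboxylase, fell from 1237 ± 26.4 to 937 ± 38.4 (SD, n = 4 each; log2 -0.40, limma adjusted p 4.20e-09). The acyl-CoA binding protein DBI and the acyl-CoA synthetases ACSL4, ACSL3, ACSL1 and ACSL5 also fell, by 0.10 to 0.32 on the log2 scale (limma adjusted p up to 0.0457). ACBD3, a Golgi protein with an acyl-CoA binding domain, rose from 602 ± 37.9 to 867 ± 25.8 (SD, n = 4 each; log2 0.53, limma adjusted p 2.94e-06).

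At high MYC 4 of these 12 fell and 1 rose, with a median of -0.07 against -0.02 over all tested genes, of which 16.3% were called lower. DBI fell from 1353 ± 51.4 to 1031 ± 38.2 (SD, n = 4 each; log2 -0.39, limma adjusted p 1.23e-07), and FASN, ACSL4 and ACSL1 fell by 0.27, 0.24 and 0.18. ACBD3 rose by 0.19 (limma adjusted p 0.0388). The response differed between MYC levels for 3 of the 12, against 8.63% of all tested genes. FASN and ACACA were less negative at high MYC by 0.44 and 0.41 (limma adjusted p 3.30e-04 and 2.44e-06), ACACA having means of 3365 and 3389 without and with the inhibitor at high MYC. ACBD3 rose less at high MYC, by 0.34 (log2 difference -0.34, limma adjusted p 0.0253). Among controls 5 of the 12 were higher and 6 lower at medium MYC (38.9% and 37.3% of all tested genes), with MCAT, ACACA and FASN lower by 1.57, 1.44 and 1.44 on the log2 scale (log2 differences -1.57, -1.44 and -1.44).

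N-terminal processing and acetylation were described by 18 genes for the mitochondrial methionine aminopeptidase and deformylase, the N-terminal acetyltransferases and the nascent chain complex, of which 17 were tested. Like METAP1 and METAP2, most were lower at medium MYC: 13 of 17 were lower and 2 higher among controls, with a median of -0.77 against 0.02 over all tested genes, where 37.3% of genes were called lower. NAA50, the catalytic subunit of the NatE acetyltransferase, had means of 2062 ± 190 and 570.1 ± 28.8 (SD, n = 4 each; log2 -1.85, limma adjusted p 4.69e-18). METAP1D, the mitochondrial aminopeptidase, had 159 ± 12.9 and 58.8 ± 7.65 (SD, n = 4 each; log2 -1.42, limma adjusted p 1.13e-09). PDF, the mitochondrial peptide deformylase, was lower by 1.32 (log2 -1.32, limma adjusted p 6.41e-07), but 48.3% of its exon bases are shared with COG8 on the same strand. The 2 genes that were higher were NAA40 (0.27), which acetylates histones, and NAA60 (0.59).

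With the inhibitor 3 of these 17 passed the test at high MYC and 4 at medium MYC, against 26.8% and 26.3% of all tested genes. At high MYC BTF3, a nascent chain complex subunit, rose by 0.09 (limma adjusted p 0.0275) and NAA38 and NAA40 fell (log2 -0.24 and -0.18). At medium MYC BTF3 rose by 0.19 (limma adjusted p 2.96e-05), NACA by 0.11 and HYPK by 0.48, while NAA40 fell (log2 -0.24, limma adjusted p 0.00467). HYPK shares 39.0% of its exon bases with SERF2 on the same strand, and NAA38 shares 39.8% with CYB5D1 on the opposite strand, so their counts are uncertain. None of the 17 responded differently between MYC levels with limma, against 8.63% of all tested genes.

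The partners of the UNC119 proteins and of the related prenyl-binding chaperone PDE6D were listed as 7 genes, and 6 were found and tested. At high MYC 3 of the 6 fell with IMP1088, against 16.3% of all tested genes. RP2, the GTPase-activating protein of ARL3, fell from 300.0 ± 41.4 to 228 ± 16.6 (SD, n = 4 each; log2 -0.39, limma adjusted p 0.00201). ARL3, the GTPase that releases UNC119 clients, fell from 156 ± 14.7 to 121 ± 7.66 (SD, n = 4 each; log2 -0.37, limma adjusted p 0.00104). ARL2 fell from 218 ± 9.94 to 177 ± 11.8 (SD, n = 4 each; log2 -0.30, limma adjusted p 0.00900). At medium MYC RP2 alone passed, falling by 0.24 (limma adjusted p 0.0475), where 14.6% of all tested genes were called lower. No gene of the 6 passed the test of the difference between MYC levels, against 8.63% of all tested genes. Among controls 3 of the 6 were higher at medium MYC, against 38.9% of all tested genes: PDE6D (0.86), ARL3 (0.61) and ARL2BP (0.30). ARL2 was lower (log2 -0.31), and 80.4% of the exon bases of ARL2BP are shared with PLLP on the opposite strand.

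The glycine N-degron pathway degrades proteins that expose an unmodified N-terminal glycine, such as those that failed to be myristoylated, through the substrate receptors ZYG11B and ZER1 of a CUL2 ubiquitin ligase. All 6 of its listed genes were tested and all 6 were called for MYC level in the controls. In that comparison 76.2% of all tested genes were called. ZER1, RBX1, CUL2 and ZYG11B were higher at medium MYC, and ELOB and ELOC were lower. ELOB shares 16.8% of its exon bases with SRRM2 on the opposite strand. The mean of SRRM2 over all libraries was 13760, so the ELOB count is uncertain. ZER1 had means of 254 ± 9.69 at high MYC and 504 ± 33.0 at medium MYC (SD, n = 4 each; log2 0.99, limma adjusted p 1.46e-13). With the inhibitor ZER1 fell at high MYC to 215 ± 3.96 (SD, n = 4; log2 -0.24, limma adjusted p 0.00162), and at medium MYC it had a mean of 543 ± 12.7 (SD, n = 4). These responses differed by -0.35 (limma adjusted p 0.00374). ZER1 was the 1 gene of the 6 that passed either test. Of all tested genes 26.8% were called with the inhibitor at high MYC, 26.3% at medium MYC and 8.63% for the difference in response.

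The 3 lysine demyristoylases SIRT2, SIRT6 and HDAC11 remove acyl chains from lysine side chains and not from N-terminal glycine. Among controls SIRT2 and SIRT6 were higher at medium MYC, by 0.37 and 0.63 on the log2 scale. Of all tested genes 38.9% were called higher in this comparison. HDAC11, named here after its values were seen, reached the minimum mean only through medium MYC libraries, so its difference had to be large. It is given as a description, with means of 4.94 ± 1.90 at high MYC and 20.2 ± 3.33 at medium MYC (SD, n = 4 each, log2 1.89). None of the 3 passed the test with the inhibitor, against 26.8% of all tested genes at high MYC and 26.3% at medium MYC. Protein prenylation and the membrane-bound O-acyltransferases, with 11 of 13 genes tested, gave 1 gene that rose and 1 that fell at each MYC level, a share of 18.2% called against 26.8% and 26.3% of all tested genes. RABGGTB, the beta subunit of the enzyme that prenylates Rab GTPases, rose from 2158 ± 147 to 2945 ± 136 at high MYC (SD, n = 4 each; log2 0.45, limma adjusted p 7.91e-07) and by 0.19 at medium MYC (limma adjusted p 0.00626), and the responses differed by 0.26 (limma adjusted p 0.0278). Its exons hold those of 3 snoRNAs (SNORD45A, SNORD45B and SNORD45C) and share 157 bases with ACADM. ICMT, which methylates prenylated proteins, fell at both levels (log2 -0.14 and -0.12). Among controls 2 of the 11 were higher and 5 lower at medium MYC, a share of 63.6% called against 76.2%, and CHML was lowest (log2 -1.24).

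Palmitoylation enzymes, which attach or remove a second lipid that many myristoylated proteins also carry, had 27 of 29 genes tested. At high MYC 4 of the 27 fell with the inhibitor and none rose with limma, with a median of 0.01, and at medium MYC 3 fell and 1 rose, with a median of 0.05. The share called was 14.8% at each level, against 26.8% and 26.3% of all tested genes. ZDHHC5, LYPLA2 and ABHD17A fell at both levels, by 0.13 to 0.24 on the log2 scale. ZDHHC14 rose at medium MYC from 123 ± 6.90 to 186 ± 19.0 (SD, n = 4 each; log2 0.59, limma adjusted p 0.00216). Among controls 10 of the 27 were higher and 6 lower at medium MYC, a share of 59.3% against 76.2%, with ZDHHC14 at 1.99 and ZDHHC9 at -1.28 on the log2 scale. The response of ZDHHC16 differed between MYC levels (log2 -0.30, limma adjusted p 0.0409).

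**Figure D4:**
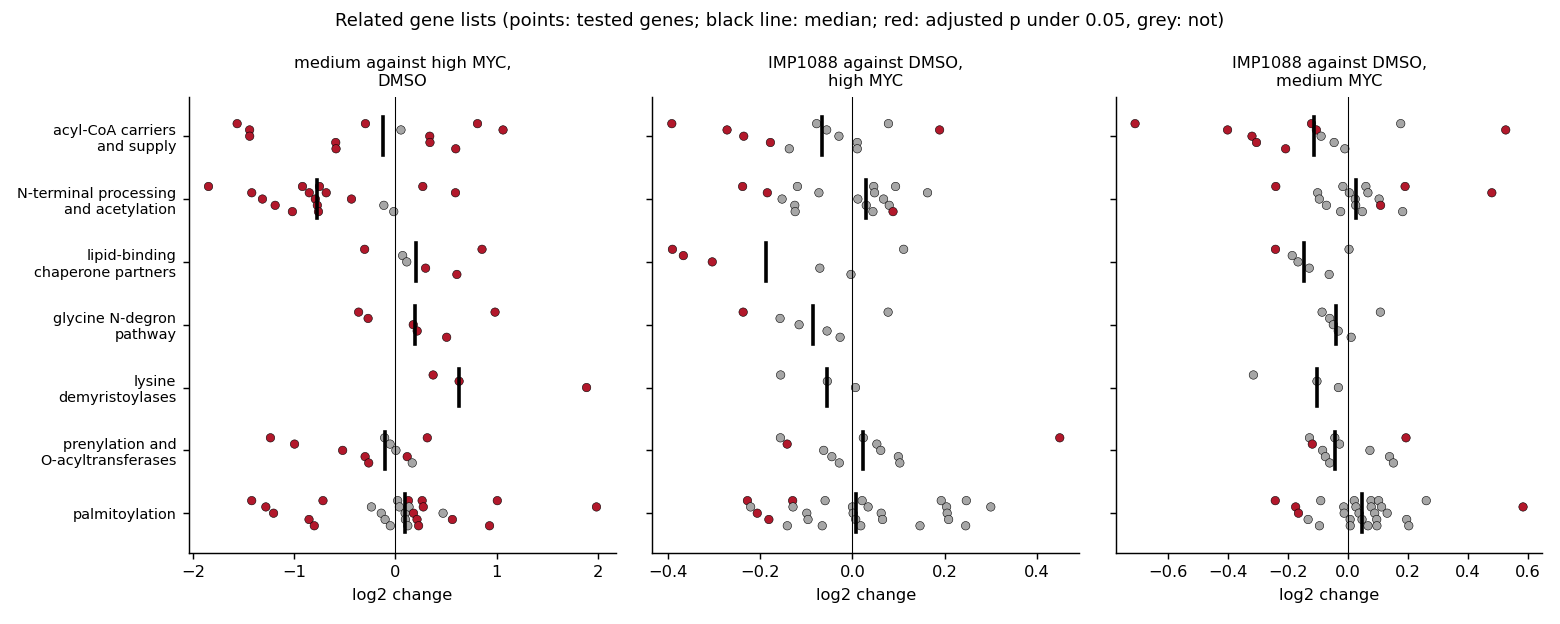
Fitted log2 change (x axis) of every tested gene of the 7 related lists (y axis) for medium against high MYC among controls and for IMP1088 against DMSO at each MYC level; points are genes, black lines list medians and red marks an adjusted p under 0.05. The N-terminal processing genes lie mostly below 0 for MYC level (median -0.77), and the acyl-CoA genes include the lowest point with the inhibitor at medium MYC (FASN, -0.71).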

How the data were processed

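RNA sequencing of 16 P493-6 libraries (4 groups of 4) was analysed from a single table. The authors deposited normalized counts, here treated as a signal that is never negative; the submitters' processing notes name STAR 2.5.2a, RSEM 1.2.31, DESeq2 1.16.1 and GRCh38, and the annotation, the use of strand and any filter are not given in the sources used here. Every value of a library divided evenly by that library's own step (relative tolerance 1e-06), so whole reads were recovered, 8755296 to 13858534 per library.

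Symbols were matched for 56948 of 58051 identifiers and positions (GENCODE 29) for 57447; 28714 identifiers were above 0 in at least 1 library. Differences were tested with limma 3.58.1 (R 4.3.3) on log2(value + 1) in the 13765 genes that reached a mean of 10, with 4 group means in 1 fit, a mean trend and Benjamini-Hochberg adjustment over all tested genes. A fold change on this scale understates the change of low genes. edgeR 4.0.16 and DESeq2 1.42.0 on recovered reads, other scalings, filters and pseudocounts, GC corrections, replicate blocks and leaving out each library were alternatives; the correction by mean transcript GC and the ratios of summed NMT2 reads were chosen after seeing the data. The fits were checked on simulated counts. Named genes were the 7 members, MYC, up to 3 called genes with the largest change per list and comparison (mean of at least 50), and the 2 nearest profiles per member; other called list genes were picked out once their values were known, so that small counts could be read. Not every gene the rule selects is printed. Not reported here are 1 gene of the chaperone partner list, 1 B cell marker and the promoter sequence of 1 member. The members and lists were chosen with earlier results of these data known. Replicate numbers did not pair the libraries: the mean residual correlation of same-numbered libraries was between -0.07 and 0.02 over 4 comparisons of groups.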

Additional observations from a re-analysis of the deposited data

Results flagged for a closer look

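UNC119B in medium MYC control replicate 4 had a normalized count of 841, apart from the other 3 libraries of its group (789 to 794). In the same way the log2 ratio of UNC119B to UNC119 in high MYC inhibitor replicate 1 was 0.95, below the other 3 libraries of that group. These were the 2 found among 40 groups of 4 values checked (7 genes and 3 ratios in 4 groups), and chance flags about 1 in 20 groups (5%).

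Of the 82 tested genes of the related lists 6 (7.32%) responded differently to IMP1088 at high and at medium MYC by limma. The difference, high minus medium MYC on the log2 scale, was 0.44 for FASN, 0.41 for ACACA and 0.26 for RABGGTB, and it was -0.34 for ACBD3, -0.35 for ZER1 and -0.30 for ZDHHC16 (limma adjusted p between 2.44e-06 and 0.0409). Of all tested genes 8.63% were called in this comparison.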

How the results depend on the processing

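NMT2, which passed the minimum only through medium MYC libraries, is again left out for MYC level. The other 6 members were called for MYC level in every setting. In the main fit 76.2% of all tested genes were called in controls and 77.5% with the inhibitor, so this sets no member apart. The count of members called for the difference in response was 0 throughout, against 8.63% of all tested genes in the main fit. For the inhibitor at high MYC the count of 2 became 1 with the compared groups only and 0 after the correction for mean transcript GC. At medium MYC the count of 2 became 1 with equal library totals, quantile normalization, DESeq2 and the correction for mean transcript GC. Leaving out 1 library gave 1 to 2 at each MYC level. Members that were not called changed sign near 0 in some settings, and the cause was not tested. With equal library totals METAP2 at high MYC was 0.014, METAP1 at medium MYC 0.013 and the NMT1 difference in response -0.0024. With TMM scaling METAP2 at high MYC was 0.0038, with edgeR 0.0052 and with DESeq2 0.0019. With quantile normalization at high MYC NMT1 was 0.0028, METAP1 0.015, METAP2 0.042 and ACBD6 0.00023, METAP1 at medium MYC was 0.0069 and its difference in response 0.0080. With the GC correction, alone or together with the replicate block, METAP2 at medium MYC was -0.031 and the METAP1 difference in response 0.0026; with mean transcript GC METAP2 at medium MYC was -0.031. Leaving out 1 library at high MYC gave ranges of -0.055 to 0.042 for METAP2, -0.087 to 0.0030 for ACBD6 and -0.45 to 0.013 for NMT2, and at medium MYC -0.066 to 0.0082 for METAP1 and -0.037 to 0.048 for METAP2. For the difference in response the ranges were -0.014 to 0.036 for NMT1, -0.036 to 0.040 for METAP1 and -0.063 to 0.034 for METAP2. Ratio differences with the inhibitor ranged from -0.39 to 0.060 (NMT2 to NMT1), -0.063 to 0.017 (METAP1 to METAP2) and -0.024 to 0.12 (UNC119B to UNC119) at high MYC, and from -0.067 to 0.045 (METAP1 to METAP2) at medium MYC. The NMT2 to NMT1 difference between MYC levels was 0.73 among controls and 1.164 with the inhibitor at a pseudocount of 10, and 3.12 with the inhibitor at a pseudocount of 0.1. Quantile normalization gave 1727 higher and 1770 lower genes with the inhibitor at high MYC, against 1442 and 2247. At medium MYC equal library totals gave 1962 and 1658 and quantile normalization 1963 and 1876, against 1606 and 2012.

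Blocking on the replicate number, the members called were again 2 at high MYC, 2 at medium MYC and 0 for the difference. For each MYC comparison all 6 members other than NMT2 were called. Of the 13765 tested genes 3468 were called with the inhibitor at high MYC, 3425 at medium MYC and 1052 for the difference. For MYC level 10419 were called in controls and 10601 with the inhibitor. At most 1 of the 4 libraries of the first group of a comparison correlated best with the same-numbered library of the other group. Depth limits NMT2 most, with 1 to 4 reads per library at high MYC.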
